A study of Sus scrofa with 6 samples.

Results

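Solute carriers are membrane proteins that move sugars, amino acids, lipids, vitamins, metals and ions across the plasma membrane or across the membranes of organelles such as mitochondria, the Golgi apparatus and synaptic vesicles. Fat cells use them to take up glucose and fatty acids, to exchange metabolites between mitochondria and cytosol, and to hold their pH and ion balance. The regions described here are the differentially methylated regions (DMRs) of the deposited table that lie in a promoter, an exon, an intron or the 2 kb downstream of a pig gene whose human homologue carries an SLC or SLCO symbol. There were 82 such DMRs at 60 genes of 28 families, of 14163 DMRs in all and 4864 in any gene element. The rule used only the gene name and no measured value. A symbol match also took in SLC4A1AP, which is named for the anion exchanger it binds and is not itself a transporter.

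The DMRs came from methylated DNA immunoprecipitation sequencing (MeDIP-seq) of backfat, in which an antibody against methylated cytosine pulls down DNA. The depth of reads at a CpG is taken as a relative measure of its methylation. Libraries were made from 3 female Landrace pigs (LBF), a lean breed, and 3 female Rongchang pigs (RBF), a fatty breed native to China, all slaughtered at 210 days of age after fasting and kept in the same housing. Each library came from a separate animal, picked from a larger group. The value of a DMR is the mean read depth over its CpGs, scaled per library by the authors, and 1 read at 1 CpG was worth 1.17 to 1.29 in LBF and 1.29 to 1.56 in RBF. The tissue is whole backfat, in which methylation of a cell type and the share of that cell type cannot be told apart. Differences between the breeds in DNA sequence, copy number or read mapping were not measured here. Their part in a depth difference cannot be told apart from methylation. No RNA values were analysed here, so that the tissue label was not checked against marker genes and nothing is said about expression.

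Most solute carrier DMRs had the higher depth in Landrace pigs. Of the 82, 71 were higher and 11 lower in LBF, so that 86.6% were higher (95% interval 77.3 to 93.1 by the exact binomial method, for counting error only and as if DMRs were independent), against 84.8% of all DMRs and 83.3% of those in gene elements. With the limma test on log2(depth + 1), 70 higher and 11 lower DMRs had an adjusted p under 0.05, where 99.5% of all listed DMRs did (84.5% of all as higher and 15.1% as lower). The table lists only regions that the study had already called on these pigs, so these counts lie at the background and the tests give sizes and spreads, not independent evidence. The depths of the breeds did not overlap in any of the 82, as in 100% of all DMRs. The median log2 fold change, LBF over RBF, was 1.62 over the solute carrier DMRs, 1.64 over all DMRs and 1.58 over those in gene elements. The lowest fold was -2.28, at an exon of SLC25A44, and the highest 3.61, at an intron of SLC39A9.

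**Figure D1:**
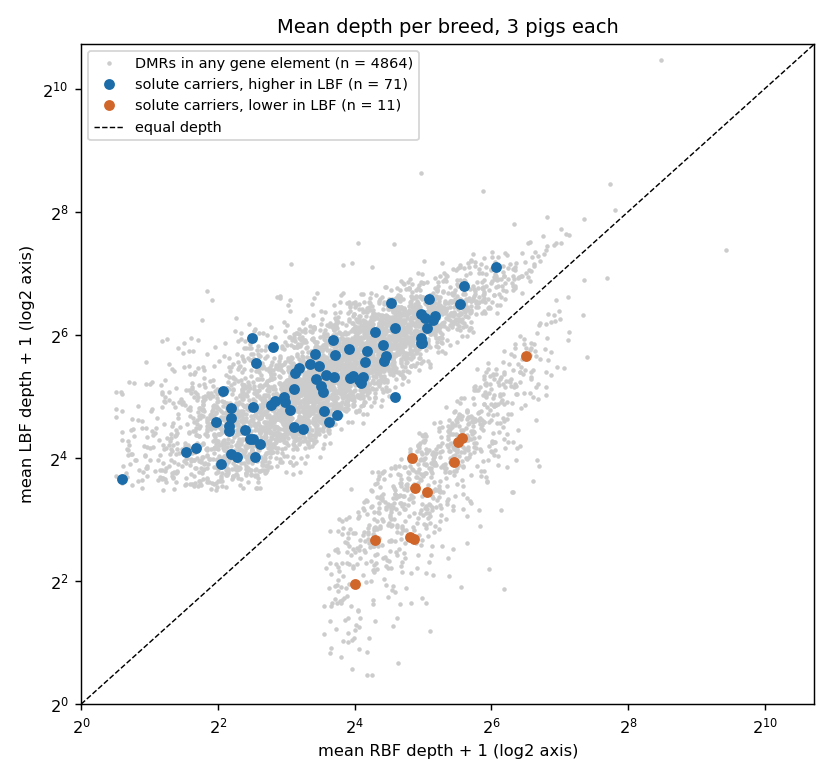
Mean depth + 1 in RBF (x axis) and LBF (y axis), both on log2 axes and each the mean of 3 pigs, for 4864 DMRs in gene elements (grey), 71 solute carrier DMRs higher in LBF (blue) and 11 lower (orange). With the scaling as deposited, the blue points lie above the dashed line of equal depth and the orange points below it, within the range of the grey points.

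The solute carrier DMRs had median depths of 32.8, 35.9 and 33.3 in LBF and of 13.4, 13 and 10.4 in RBF. RBF replicate 3 was the lowest of its breed in 47 of the 82 DMRs (57.3%, against 54% of all DMRs), and in 44 of the 71 that were higher in LBF. Without this library, 70 DMRs higher and 11 lower in LBF still passed limma, and the median log2 fold change was 1.36. A depth of 0 was listed in an RBF library for 4 of the DMRs and in an LBF library for 0. The spread between pigs was wider in RBF, with a median SD of log2(depth + 1) of 0.41 against 0.19 in LBF.

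How the libraries are scaled bears on every direction given here. When each library was set to the same median over all listed DMRs, the median log2 fold change of all DMRs moved by -1.41, to 0.24, and that of the solute carrier DMRs went to 0.19. The solute carriers then split into 49 higher and 33 lower in LBF, with 59.8% higher here and 59.8% higher over all DMRs, and 6 higher and 12 lower passed limma. The background under that scaling was 10.9% of all DMRs called higher and 17% called lower. The 6 were also called higher as deposited. They were introns of SLC39A9, SLC6A4, SLC6A7, SLC41A2, SLC18A1 and SLC25A40. All 11 DMRs that were lower as deposited were called lower again, and the twelfth was an intron of SLC46A2, which had been higher without passing limma. This scaling sets its zero at the centre of a list of regions picked because they differ, so part of its outcome is fixed by how it is built.

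**Figure D2:**
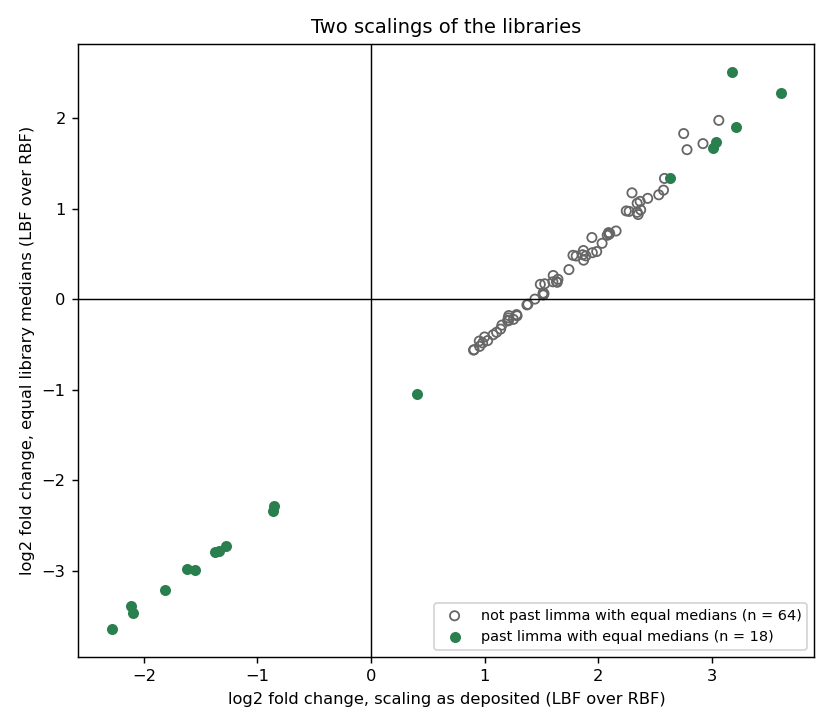
Log2 fold change (LBF over RBF) of each of the 82 solute carrier DMRs with the libraries scaled as deposited (x axis) and with equal library medians (y axis). Filled points are the 18 that passed limma with equal medians and open points the 64 that did not, and DMRs of small positive fold turn negative on the y axis.

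In promoters, exons and downstream regions lay 13 of the DMRs, of which 7 were higher and 6 lower in LBF, and the 69 that lay only in introns were 64 higher and 5 lower. All DMRs touching an intron numbered 71, of which 65 were higher and 6 lower, beside 83.95% higher among intron DMRs of all genes. With equal library medians they split into 46 higher and 25 lower (64.8% higher, beside 57.2%). Promoters held 7 DMRs, 6 of them higher and 1 lower in LBF, beside 83.6% higher among promoter DMRs of all genes. Set to equal library medians, this became 3 higher and 4 lower, beside 59.5% higher among promoter DMRs of all genes. Exons held 5 DMRs, 2 higher and 3 lower, where 72.4% of exon DMRs of all genes were higher, and with equal library medians all 5 were lower, where 45.6% were higher among all genes. The downstream regions held 1 higher and 2 lower under either scaling, beside 83.5% higher among downstream DMRs of all genes as deposited and 61.4% with equal library medians. No test of these shares against other genes was made.

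SLC17A8 loads glutamate into synaptic vesicles. Its promoter DMR (chromosome 5, 87684503 to 87684605, 8 CpGs) had depths of 34.2, 33.8 and 23.9 in LBF and 13.5, 5.66 and 1.29 in RBF. The LBF libraries lay above all RBF libraries, and RBF replicate 3 was the lowest (log2 fold change 2.37, SE 0.65, adjusted p = 0.010). The promoter of SLC25A16, a carrier of the mitochondrial inner membrane, held the promoter DMR with the most CpGs (chromosome 14, 77674381 to 77674535, 14 CpGs, also annotated to the first intron). It had 34.7, 45.7 and 38.3 in LBF and 15.9, 15.1 and 2.12 in RBF (log2 fold change 2.09, SE 0.66, adjusted p = 0.018), and its adjusted p was 0.056 without LBF replicate 2. Without RBF replicate 3 the log2 fold change was 1.29. SLC7A9, the cystine transporter of kidney and gut, held a promoter DMR (chromosome 6, 38214843 to 38214885) with 16.9, 12.6 and 15.9 in LBF and 4.57, 6.25 and 3.61 in RBF (log2 fold change 1.49, SE 0.25, adjusted p = 0.0023). It was the shallowest of the 7 promoter DMRs in LBF. With equal library medians the log2 fold changes of SLC17A8, SLC25A16 and SLC7A9 were 1.08, 0.74 and 0.17, and none passed limma.

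SLC30A10 exports manganese. It held the only promoter DMR of the 82 in a CpG-rich promoter (chromosome 10, 11628191 to 11628363), with 51.8, 60.6 and 60.5 in LBF and 35.04, 32.02 and 24.5 in RBF (log2 fold change 0.91, SE 0.22, adjusted p = 0.0063). The other 6 promoter DMRs lay in promoters of intermediate CpG content. SLC20A2, a sodium-coupled phosphate transporter, had a DMR that spanned promoter and first exon (chromosome 17, 12901629 to 12901719), with 33.9, 40.4 and 42.9 in LBF and 18.3, 14.8 and 10.97 in RBF (log2 fold change 1.37, SE 0.25, adjusted p = 0.0028). At SLC22A10, of the organic ion transporter family, a DMR in the same kind of position (chromosome 2, 8015744 to 8015951) had 36.03, 40.8 and 37.8 in LBF and 15.2, 10.9 and 16.6 in RBF (log2 fold change 1.38, SE 0.22, adjusted p = 0.0022). The DMRs of SLC30A10, SLC20A2 and SLC22A10 turned to RBF with equal library medians, at -0.56, -0.061 and -0.054, without passing limma.

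SLC15A1, the transporter that takes up small peptides in the gut, held the only promoter DMR of the 82 that was lower in LBF. The DMR was short (34 bp, 5 CpGs, chromosome 11, 74924408 to 74924441, promoter and first intron). Depths were 45.6, 40.996 and 61.9 in LBF and 91.4, 81.2 and 97.1 in RBF. The highest Landrace pig thus stayed 19.3 below the lowest Rongchang pig (log2 fold change -0.87, SE 0.23, adjusted p = 0.0090). With equal library medians the log2 fold change was -2.34.

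The exon DMRs that were lower in LBF belonged to SLC25A44, SLC35F1 and SLC35B3. SLC25A44, the carrier that brings branched-chain amino acids into mitochondria and that was described in brown fat of mice and humans, had 3.29, 9.02 and 4.03 in LBF and 27.4, 26.9 and 30.5 in RBF at its last exon (chromosome 4, 102580879 to 102581029). On average RBF was 5.18 times as deep (log2 fold change -2.28, SE 0.34, adjusted p = 0.0020). This DMR was also annotated to PMF1, so that it cannot be assigned to SLC25A44 alone. An internal exon of SLC35F1, of the nucleotide sugar transporter family, had 2.55, 1.504 and 4.55 in LBF and 13.2, 13.5 and 18.5 in RBF (chromosome 1, 49011308 to 49011473; log2 fold change -2.12, SE 0.33, adjusted p = 0.0022). The last exon of SLC35B3, which carries the sulfate donor into the Golgi apparatus, had 3.13, 15.3 and 11.5 in LBF and 29.7, 33.8 and 33.3 in RBF (chromosome 7, 5786542 to 5786666; log2 fold change -1.82, SE 0.51, adjusted p = 0.011). LBF replicate 1 was the lowest Landrace library at SLC25A44 and SLC35B3, and the breeds stayed apart by 17.8 and 14.5.

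Downstream of SLC1A2, the main glutamate uptake transporter of astrocytes, a DMR on chromosome 2, 28127869 to 28127936 had 6.04, 4.42 and 6.27 in LBF and 22.4, 27.4 and 31.3 in RBF (log2 fold change -2.09, SE 0.23, adjusted p = 0.0014). Downstream of SLC46A2 the depths were 14.1, 18.7 and 24.3 in LBF and 46.2, 49.5 and 44.3 in RBF (log2 fold change -1.28, SE 0.24, adjusted p = 0.0033). The third downstream DMR, at SLC35D1, a carrier of nucleotide sugars into the endoplasmic reticulum, went the other way, with 15.1, 15.2 and 11.3 in LBF and 1.52, 2.54 and 5.32 in RBF over 16 CpGs (log2 fold change 1.94, SE 0.36, adjusted p = 0.0031).

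**Figure D3:**
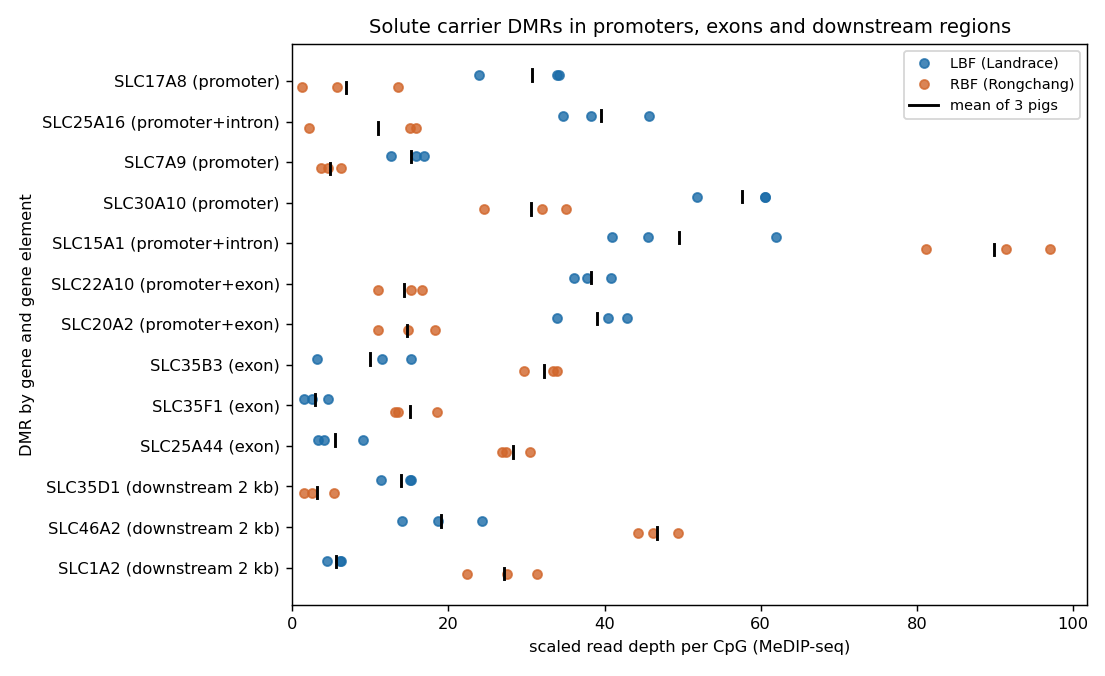
Scaled read depth per CpG (x axis) of the 13 solute carrier DMRs in promoters, exons and the 2 kb downstream (y axis), with a point for each of the 3 LBF (blue) and 3 RBF (orange) pigs and a black bar for the mean of a breed. SLC15A1, the exons of SLC35B3, SLC35F1 and SLC25A44, and the regions downstream of SLC46A2 and SLC1A2 have the higher depth in RBF, and the points of the breeds do not overlap at any of the 13 as deposited, while SLC30A10, SLC20A2 and SLC22A10 turn to RBF with equal library medians.

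Mitochondrial carriers of the SLC25 family exchange metabolites across the inner membrane. They held 8 DMRs at 7 genes, 5 higher and 3 lower in LBF, all past limma, and 4 higher and 4 lower with equal library medians. The background for this and each group below was 83.3% higher in gene elements as deposited and 57.1% with equal library medians. Of all listed DMRs, 99.5% passed limma as deposited. The highest was an intron of SLC25A40, which has been linked to glutathione import into mitochondria, with 23.3, 25.9 and 19.9 in LBF and 2.67, 2.34 and 3.71 in RBF (log2 fold change 2.63, SE 0.22, adjusted p = 0.0012). SLC25A3, the phosphate carrier that supplies ATP synthase, held a pair of intron DMRs only 11 bp apart (chromosome 5, 89612411 to 89612533, and 89612545 to 89612628). The first had 28.3, 30.1 and 25.5 in LBF and 5.54, 6.25 and 5.75 in RBF. The second had 29.1, 33.4 and 26.1 in LBF against 7.62, 6.05 and 4.84. Their log2 fold changes were 2.08 (SE 0.18) and 2.10 (SE 0.23). Per the methods the DNA fragments were longer than the gap, so the same fragments can cover both. The DMRs are thus not independent. SLC25A25, which exchanges ATP-magnesium for phosphate, was among the deepest DMRs, with 96.1, 76.8 and 96.3 in LBF and 39.9, 51.2 and 46.2 in RBF (log2 fold change 0.96, SE 0.21, adjusted p = 0.0047).

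Beside the exon of SLC25A44, introns of SLC25A26 and SLC25A37 were lower in LBF. SLC25A26 imports S-adenosylmethionine, the methyl donor, into mitochondria. Its intron DMR (chromosome 13, 52531172 to 52531391, 220 bp with 5 CpGs) had 10.1, 15.2 and 17.3 in LBF and 41.7, 48.1 and 38.5 in RBF (log2 fold change -1.55, SE 0.25, adjusted p = 0.0023). SLC25A37, the iron importer known as mitoferrin, had 24.9, 10.1 and 19.5 in LBF and 44.5, 48.1 and 41.8 in RBF at its first intron, at the shore of a CpG island (log2 fold change -1.34, SE 0.34, adjusted p = 0.0077). LBF replicate 2 was the lowest there, and the LBF values spread more widely than the RBF values.

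The families named for transport of fatty acids and bile acids held 6 DMRs, all higher in LBF and past limma, and with equal library medians 4 higher and 2 lower. In gene elements 83.3% were higher as deposited and 57.1% with equal library medians, and 99.5% of all listed DMRs passed limma as deposited. Genes were placed by family, not by the solute of each member. SLC27A2 and SLC27A6 are fatty acid transport proteins, of which SLC27A2 also activates very-long-chain fatty acids as an acyl-CoA synthetase. In the first intron of SLC27A2 lay a DMR with 37.3, 37.9 and 37.1 in LBF and 18.3, 13.8 and 15.3 in RBF (chromosome 1, 135214362 to 135214478; log2 fold change 1.202, SE 0.19, adjusted p = 0.0022). The Landrace libraries differed little from each other there (SD 0.439). About 5.50 kb further lay a second DMR at 15.5, 16.5 and 15.4 in LBF and 0, 5.73 and 4.95 in RBF (log2 fold change 2.30, SE 0.72, adjusted p = 0.018), and its adjusted p was 0.0503 without LBF replicate 2. Without RBF replicate 1 the log2 fold change was 1.41. The last intron of SLC27A6 had 47.7, 41.4 and 45.9 in LBF and 11.8, 12.5 and 3.32 in RBF (chromosome 2, 137173135 to 137173230; log2 fold change 2.34, SE 0.46, adjusted p = 0.0035). The log2 fold changes of these 3 DMRs under equal library medians were -0.24, 1.18 and 0.96, and none passed limma.

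SLC10A7, of the bile acid transporter family, held 3 intron DMRs over a long stretch of chromosome 8. From the first to the last intron their depths were 18.9 against 4.73, 36.4 against 16.01 and 27.3 against 4.71 (LBF mean against RBF mean). The log2 fold changes were 1.81, 1.15 and 2.44, and the middle one turned to RBF with equal library medians (-0.28).

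Transporters of amino acids, peptides and transmitters held 14 DMRs at 12 genes, 12 higher and 2 lower in LBF, all past limma, and 9 higher and 5 lower with equal library medians. The 5 SLC6 genes, which take up monoamines and amino acids with sodium and chloride, held 6 intron DMRs, all higher as deposited. SLC6A4, the serotonin transporter, had the largest fold of the group at an intron DMR of 11 CpGs (chromosome 12, 48126384 to 48126601), with 67.8, 41.1 and 55.5 in LBF and 9.42, 7.24 and 1.41 in RBF (log2 fold change 3.21, SE 0.57, adjusted p = 0.0027). A second DMR 448 bp further had 53.5, 48.3 and 46.9 in LBF and 12.2, 28.6 and 21.9 in RBF (1.28). The LBF depths at these neighbours overlapped, whereas every RBF library was higher at the second. SLC6A2 and SLC6A3, the noradrenaline and dopamine transporters, had 38.8 against 16.4 and 18.8 against 4.54 (LBF mean against RBF mean), with log2 fold changes of 1.21 and 1.87. SLC6A17, a vesicular amino acid transporter of neurons, had 21.1 against 8.51 (1.21). Under equal library medians SLC6A2, SLC6A17 and the second DMR of SLC6A4 turned to RBF without passing limma (-0.23, -0.18 and -0.17).

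SLC6A7, the proline transporter of neurons, had the largest ratio of the 82. Its first intron had 8.22, 11.6 and 15.2 in LBF and 0, 1.56 and 0 in RBF (chromosome 2, 158184821 to 158184923), so that the LBF mean was 22.4 times the RBF mean (log2 fold change 3.17, SE 0.44, adjusted p = 0.0017). Summed over its 6 CpGs, with a read counted at each CpG it covers, the RBF values rest on 6 reads, all in RBF replicate 2, and the LBF values on 173. The ratio is therefore imprecise. SLC18A1, which loads monoamines into vesicles, held a pair of intron DMRs 1.38 kb apart. The first had 54.4, 47.7 and 34.01 in LBF and 5.08, 6.77 and 2.80 in RBF (chromosome 14, 4290112 to 4290156; log2 fold change 3.01, SE 0.33, adjusted p = 0.0014). The second had 49.1, 61.2 and 40.5 in LBF against 6.09, 7.03 and 16.1 (2.35). SLC15A4, a peptide and histidine transporter of lysosomes, had 43.2 against 8.14 (2.37), and SLC7A2, which takes up arginine and lysine, had 26.5 against 7.33 (1.86).

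Ion exchangers and cotransporters formed the largest group, with 19 DMRs at 16 genes, among them the binding protein SLC4A1AP. All 19 were higher in LBF as deposited and passed limma, with log2 fold changes of up to 2.58. In gene elements 83.3% were higher as deposited, and 99.5% of all listed DMRs passed limma. With equal library medians the 19 split into 10 higher and 9 lower, beside 57.1% higher in gene elements. No difference of this group from other genes was tested. The SLC24 genes exchange sodium for calcium and potassium, and 3 of them held 6 DMRs. SLC24A4 alone held 4 intron DMRs (chromosome 7, 120461747 to 120536944), which had LBF means of 23.03, 137, 76.2 and 59.6 in order of position. The RBF means were 11.3, 66.1, 31.6 and 11.9. The log2 fold changes were 0.95, 1.03, 1.29 and 2.57 along the gene. The second of them was the deepest of all 82 DMRs, with 137, 114 and 159 in LBF and 62.5, 66.2 and 69.7 in RBF. At the last of them the RBF depths were 15.996, 17.3 and 2.32, with replicate 3 well below the others. First introns of SLC24A2 and SLC24A3 had 35.1 against 10.4 and 90.2 against 22.2 (LBF mean against RBF mean; log2 fold changes 1.74 and 1.99).

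Sodium-proton exchangers of the SLC9 family keep cytosol and organelles from acidifying. SLC9A8, which acts in the Golgi apparatus, had the largest fold of the ion transporters, with 23.7, 30.5 and 18.2 in LBF and 6.35, 3.12 and 1.29 in RBF (log2 fold change 2.58, SE 0.45, adjusted p = 0.0026). SLC9A2, an exchanger of epithelia, was among the deepest DMRs, with 99.4, 112 and 116 in LBF against 53.5, 60.9 and 28.2 in RBF (1.25), and turned to RBF with equal library medians (-0.22). SLC9C2, of the same family, had 109.8, 76.4 and 98.6 in LBF against 34.5, 41.8 and 23.1 in RBF (1.52). The chloride and anion exchangers SLC26A3 and SLC26A4, both on chromosome 9, had 20.9 against 4.25 and 60.5 against 30.3 (LBF mean against RBF mean), with log2 fold changes of 2.25 and 0.98. SLC8B1, the sodium-calcium exchanger of mitochondria, had 49.7 against 12.1 at a DMR also annotated to OAS1 (2.16). The bicarbonate transporters SLC4A5 and SLC4A10 had 74.7 against 34.3 and 33.7 against 7.64, with log2 fold changes of 1.10 and 2.09. SLC8A2, a sodium-calcium exchanger, had 21.6 against 7.62 (1.53), and SLC4A1AP had 26.1 against 10.8 (1.21). With equal library medians SLC26A4, SLC4A5 and SLC4A1AP also turned to RBF, at -0.48, -0.36 and -0.20, without passing limma.

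Metal transporters held 7 DMRs at 5 genes, 6 higher and 1 lower in LBF, all past limma, and 5 higher and 2 lower with equal library medians. SLC39A9, of the zinc importer family, had the largest log2 fold change of all 82. Its intron DMR (chromosome 7, 99397620 to 99397837, 15 CpGs in 218 bp) had 53.2, 60.2 and 69.7 in LBF and 1.52, 5.42 and 6.97 in RBF (log2 fold change 3.61, SE 0.44, adjusted p = 0.0015). SLC41A2, a magnesium transporter, had 31.7, 33.3 and 33.5 in LBF and 4.29, 2.98 and 2.35 in RBF over 11 CpGs of its first intron (chromosome 5, 83023127 to 83023307; log2 fold change 3.03, SE 0.23, adjusted p = 0.0012). The spread between pigs was narrow there (SD 0.987 in LBF and 0.993 in RBF). These SLC39A9 and SLC41A2 DMRs were also called with equal library medians, at 2.28 and 1.74. SLC39A11 held DMRs 209 kb apart in its introns, with close folds of 1.51 and 1.64. SLC30A7, which loads zinc into the Golgi apparatus, had 37.7 against 9.78 (1.89).

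Carriers of organic ions take up drugs, bile salts, hormones and waste products. They held 13 DMRs at 7 genes, 12 higher and 1 lower in LBF, all past limma, and 8 higher and 5 lower with equal library medians. SLC22A23, a family member whose substrate is not known, held 4 intron DMRs (chromosome 7, 2095962 to 2155449). Their log2 fold changes were 1.07, 1.52, 1.87 and 1.21 in order of position, and the first and last turned to RBF with equal library medians. The steepest had 47.2, 50.3 and 63.8 in LBF and 10.7, 17.2 and 14.5 in RBF (chromosome 7, 2143043 to 2143116; log2 fold change 1.87, SE 0.25, adjusted p = 0.0017). SLC22A15 had 17.9, 23.7 and 24.2 in LBF and 0.914, 0 and 9.55 in RBF at its first intron (log2 fold change 3.06, SE 0.82, adjusted p = 0.0098). RBF replicate 3 stood above the other RBF libraries there, and the RBF values rest on 40 reads summed over the 5 CpGs in the same way. SLC22A2, the organic cation transporter of the kidney, had 14.1, 18.2 and 18.5 in LBF and 3.05, 3.57 and 0 in RBF (2.75). SLCO1A2, an uptake transporter of bile salts and steroid conjugates, held DMRs with log2 fold changes of 2.92 and 2.27, and SLCO5A1 held DMRs at 1.14 and 1.65.

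Vitamin, choline and related transporters held 8 DMRs at 5 genes, 7 higher and 1 lower in LBF, of which 6 and 1 passed limma, and 5 higher and 3 lower with equal library medians. SLC19A3, a thiamine transporter, had 62.0, 70.3 and 63.001 in LBF and 28.8, 20.8 and 6.71 in RBF in its first intron (chromosome 15, 142970875 to 142971056; log2 fold change 1.95, SE 0.50, adjusted p = 0.0080). SLC23A1, which takes up vitamin C, had 40.99, 40.1 and 50.9 in LBF and 12.2, 11.1 and 7.17 in RBF (log2 fold change 2.03, SE 0.25, adjusted p = 0.0015). SLC44A1, a choline transporter, held 3 intron DMRs with log2 fold changes of 1.601, 0.999 and 2.34. The last of these followed the second at a distance of 1.17 kb, and its RBF depths of 14.7, 4.69 and 1.29 were the more uneven. The first intron of SLC44A5 had 15.2 against 3.83 (1.78).

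Nucleotide sugar and sugar phosphate transporters held 6 DMRs at 4 genes, 3 higher and 3 lower in LBF under either scaling, all past limma as deposited. The median log2 fold change of these 6 was 0.04 as deposited and -1.39 with equal library medians, where 0 higher and 3 lower passed limma. Of the sugar transporters, only SLC45A2, which acts in the melanosomes of pigment cells, held a DMR, with 12.9, 20.5 and 20.02 in LBF and 6.09, 5.27 and 4.03 in RBF in an intron (chromosome 16, 20741178 to 20741321; log2 fold change 1.603, SE 0.26, adjusted p = 0.0023). The SLC2 family, which holds the insulin-sensitive glucose transporter of fat cells, had 0 DMRs in the table analysed here. Of 45 solute carrier genes on a list drawn up here for fat cell transport, 5 had a DMR, namely SLC27A2, SLC27A6, SLC25A25, SLC25A44 and SLC19A3. Whether the listed genes act in backfat was not checked, and the share of other genes with a DMR was not computed. Whether a gene with no listed DMR was methylated alike in the breeds or had too few reads cannot be told apart here.

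**Figure D4:**
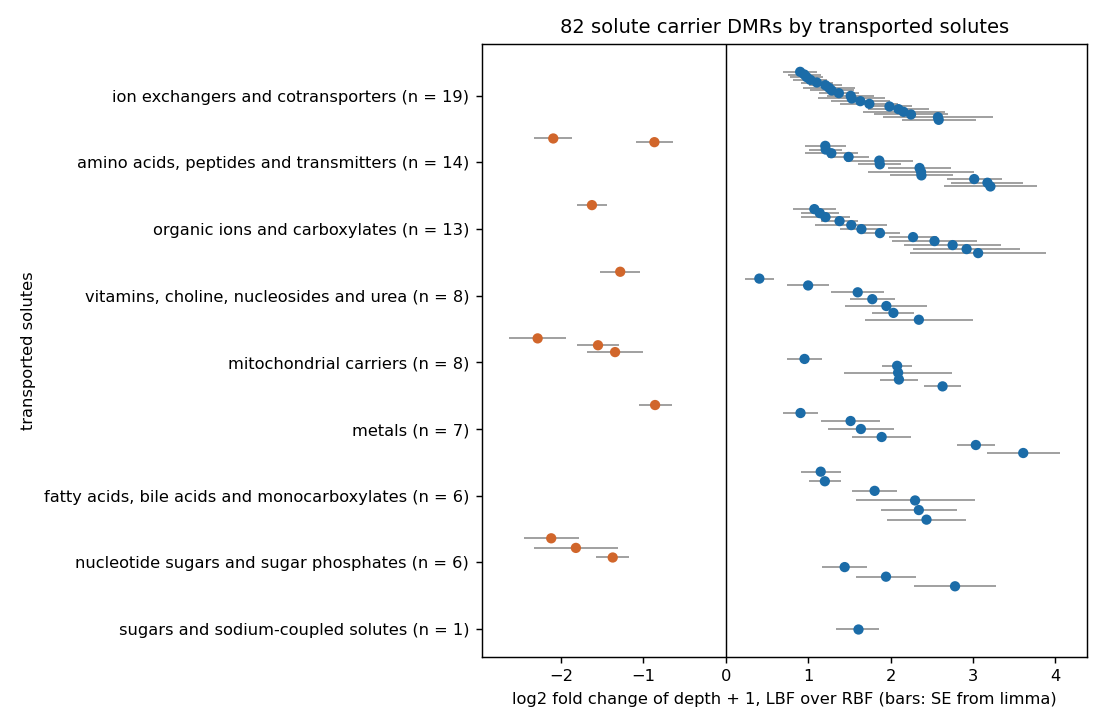
Log2 fold change of depth + 1 (x axis, LBF over RBF, bars for the limma standard error) of the 82 solute carrier DMRs, grouped by the solutes of their families (y axis), blue where higher and orange where lower in LBF as deposited. Nucleotide sugar and sugar phosphate transporters hold 3 DMRs on either side of 0, but only the 3 lower ones pass limma with equal library medians. The 19 DMRs of ion exchangers and cotransporters all lie to the right of 0 as deposited and split into 10 higher and 9 lower with equal library medians. In gene elements 83.3% were higher as deposited and 57.1% with equal library medians.

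Several DMRs lay in 16 of the 60 genes. As deposited, 11 of these held DMRs of a single direction, all higher in LBF. The other 5 held DMRs of both directions, or 31.3%, against 36.7% of the 881 genes with several DMRs in the whole table. Counted by gene, 49 genes had only higher and 6 only lower DMRs. Neighbouring DMRs of the same solute carrier gene pointed the same way in 17 of 22 pairs (77.3%), beside 75.2% of 1796 pairs over all genes, also as deposited. With equal library medians the DMRs of SLC10A7, SLC22A23, SLC24A4, SLC27A2, SLC44A1, SLC6A4 and SLCO5A1 had mixed signs, those below 0 without passing limma. Those of SLCO5A1, for example, came to -0.33 and 0.22. Genes and pairs were not recounted under that scaling.

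The opposite DMRs of SLC37A1, a sugar phosphate exchanger of the endoplasmic reticulum, lay closest to each other. An intron DMR on chromosome 13, 216340224 to 216340293 had 43.1, 46.4 and 48.6 in LBF and 20.3, 19.3 and 10.97 in RBF (log2 fold change 1.44, SE 0.27, adjusted p = 0.0032). Only 1.46 kb further, a DMR had 11.98, 10.6 and 8.78 in LBF and 26.5, 29.7 and 29.2 in RBF (log2 fold change -1.37, SE 0.20, adjusted p = 0.0019). Set to equal library medians, the first came to 0.003 (adjusted p = 0.99) and the second to -2.79. The DMRs of SLC46A2 lay 3.63 kb apart, one downstream and lower in LBF, and the other in the last intron at 29.2, 30.4 and 33.1 in LBF and 21.8, 24.02 and 23.2 in RBF. That intron DMR was the longest of the 82 (507 bp, 16 CpGs), had the smallest gap between the breeds (5.13), and was the only one that did not pass limma (log2 fold change 0.41, SE 0.18, adjusted p = 0.061). Its adjusted p was 0.012 on linear depth.

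SLC35B3 held the widest contrast, though the RBF values of its higher DMR rest on 21 reads summed over 5 CpGs. The mean depth of that DMR over the 6 libraries was 9.04. Its last exon was lower in LBF (log2 fold change -1.82), and an intron 6.99 kb further had 20.4, 13.4 and 14.7 in LBF and 1.22, 0.312 and 4.13 in RBF (log2 fold change 2.78, SE 0.50, adjusted p = 0.0029). SLC22A8, which clears organic anions and drugs in the kidney, had 42.9, 43.7 and 35.4 in LBF and 4.19, 3.25 and 15.7 in RBF over 12 CpGs of its first intron (chromosome 2, 8132047 to 8132393; log2 fold change 2.53, SE 0.52, adjusted p = 0.0040). An internal intron 9.32 kb further had 5.64, 5.41 and 4.98 in LBF and 16.8, 19.4 and 19.6 in RBF (chromosome 2, 8141713 to 8141818; log2 fold change -1.62, SE 0.18, adjusted p = 0.0014). The promoter of SLC30A10 was higher, and its last intron lower in LBF, at 12.9, 14.2 and 17.8 against 28.6, 26.9 and 27.6 in RBF (log2 fold change -0.86, SE 0.20, adjusted p = 0.0059). Under equal library medians the DMRs of SLC22A8 and SLC35B3 still had opposite signs, but the higher DMR of each no longer passed limma, at 1.16 (adjusted p = 0.23) and 1.65 (adjusted p = 0.12). Those of SLC30A10 and SLC46A2 were all lower in LBF.

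**Figure D5:**
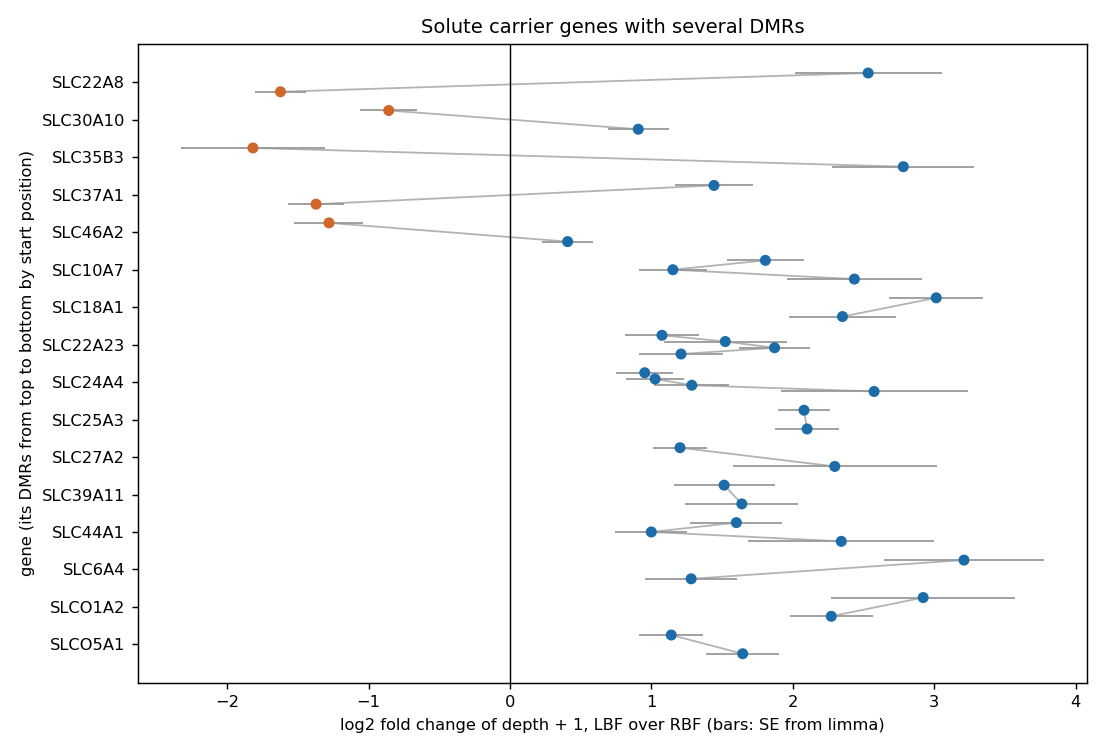
Log2 fold change of depth + 1 (x axis, LBF over RBF as deposited, bars for the limma standard error) of each DMR in the 16 solute carrier genes with several DMRs (y axis, DMRs of a gene joined from top to bottom by start position), blue where higher and orange where lower in LBF. The 5 genes at the top hold DMRs on either side of 0, and those of SLC30A10 and SLC46A2 are all lower with equal library medians. The contrast is widest at SLC35B3, where the RBF values of the higher DMR rest on 21 reads summed over its CpGs.

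In what the rule did not use, the solute carrier DMRs had a median length of 136 bp and a median of 6 CpGs, against 146 bp and 7 CpGs for all DMRs in gene elements. A CpG island shore was annotated to 9 of the 82 (10.98%, against 6.78% in gene elements) and a CpG island to 0 (0.678%). First introns held 18, internal introns 47 and last introns 6 of the DMRs. The 11 DMRs lower in LBF had only 5 to 7 CpGs each. All 14 solute carrier DMRs with at least 10 CpGs were higher in LBF, beside 94.9% of such DMRs in gene elements, and 83.8% of the 68 with fewer CpGs were higher, beside 79.6%. With equal library medians 12 of the 14 were higher and 2 lower, beside 78.1% higher in gene elements, and 54.4% of the 68 were higher, beside 50.3%. The nearest other DMR of the table lay at a median of 40.4 kb and pointed the same way for 66 of the 82 (80.5%, against 75.5% in gene elements, median 24.1 kb). Among the 11 lower in LBF it did so for only 2 (18.2%, against 21.1% of the lower DMRs in gene elements). Chromosomes 7 and 1 held the most, with 12 and 11 DMRs, and the X chromosome held 0. None of these shares was tested against other genes.

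For comparison, symbols of ABC transporters, P-type ATPases, aquaporins and MFSD transporters together matched 24 DMRs at 13 genes. Of these, 21 were higher and 3 lower in LBF, all past limma, with a median log2 fold change of 1.78. In gene elements 83.3% were higher, with a median of 1.58, and 99.5% of all listed DMRs passed limma. These were 18 DMRs at genes with ABC symbols, ABCE1 among them, and 6 at genes with P-type ATPase symbols. The match was by symbol only, and transport by each gene was not checked. Set to equal library medians, the 24 DMRs split into 17 higher and 7 lower. Of 30 genes of insulin signaling and glucose uptake, 6 had a DMR, among them GRB10, HK2, PIK3CA, RAB10 and TBC1D1. They held 11 DMRs higher and 1 lower, all past limma, with a median of 1.37. With equal library medians 4 of these DMRs were higher and 8 lower, with a median of -0.08. Under that scaling 57.1% of DMRs in gene elements were higher, with a median of 0.17. HK2 is the hexokinase that traps glucose in fat and muscle cells. As deposited, it was higher in an intron at 37.7 against 5.91 (log2 fold change 2.62), an exon (1.21) and downstream (2.06). TBC1D1, which holds back the glucose transporter until it is phosphorylated, had 78.3 against 29.98 as deposited (1.39). No difference between these lists and the solute carriers was tested.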

How the data were processed

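Backfat MeDIP-seq libraries of 3 LBF and 3 RBF pigs were studied through the list of DMRs deposited by the authors. Per the methods, low-quality reads were removed, SOAP2 was used for alignment to the pig genome (Sscrofa10.2 in the submitters' processing notes), a read with several positions was taken once, thinly covered CpGs were left out, and neighbouring CpGs with a breed difference formed DMRs of at least 5 CpGs. The deposited signal is coverage, the read depth averaged across a DMR's CpGs, which the authors scaled per library. For plots of methylation along chromosomes, the study describes scaling depth to the mean number of reads of a group. The sources used here give no such method for the DMR depths. The p-value and FDR columns of the authors are their own comparison of the breeds and were not used. Other numbers that the authors deposited are the length and the CpGs of a DMR. Coordinates are those of the table. Genes carry the human homologue that the table gives to a pig transcript. Of the 60 symbols, 58 are also pig gene names or synonyms in RefSeq (Sscrofa11.1), and 9 genes had no pig symbol in the table.

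The 14163 DMRs were each counted once and fitted together with limma (version 3.58.1, R 4.3.3) to log2(depth + 1). Breed was the only term, p-values were adjusted by Benjamini-Hochberg across the whole table, and the threshold was 0.05. All log2 fold changes are on this scale, which understates differences at low depth. A count model was not used, since coverage is a mean over CpGs. With 3 pigs per breed, the smallest two-sided p of an exact permutation test is 0.10. The members, the lists and the tests were chosen with earlier results of these data known. DMRs were named if they lay in a promoter or exon, were among the 10 largest folds of a direction at a mean depth of at least 10, belonged to genes with 3 or more DMRs or with both directions, were among the 5 with the most CpGs or the deepest 5, or belonged to a list of 45 genes drawn up here for fat cell transport. This took in 51 DMRs of 35 genes. Others are named as examples of a group, chosen after their values were seen. The values of a few genes are not reported here. Alternatives were other pseudocounts, linear depth, equal library medians, filters on depth and CpGs, a replicate block, each library left out and other membership rules.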

Additional observations from a re-analysis of the deposited data

How the results depend on the processing

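The counts of solute carrier DMRs called were 70 higher and 11 lower in LBF with a pseudocount of 0.5 or 5 and with the replicate block, 71 and 11 on linear depth, and 63 and 10 at a mean depth of at least 10. The median log2 fold change was 1.66 with a pseudocount of 0.5, 1.32 with a pseudocount of 5, 1.56 at a mean depth of at least 10 and 1.62 by gene. With at least 10 CpGs there were 13 called higher and 0 called lower with limma (also 0 at an unadjusted p under 0.05), since no lower DMR has that many CpGs, with a median of 2.12 and 100% higher. With equal library medians the counts were 6 and 12, the median 0.19 and the share higher 59.8%. Leaving out a library gave 68 to 70 higher and 11 lower, medians of 1.36 to 1.69 and a share of 86.6% throughout. Without LBF replicate 2 the SLC25A16 promoter (adjusted p = 0.056 with limma) and the second SLC27A2 intron (0.0503) no longer passed. Their log2 fold changes fell to 1.29 without RBF replicate 3 and to 1.41 without RBF replicate 1. Without RBF replicate 3 the median was 1.36. Without SLC4A1AP, an alternative chosen after seeing the data, 69 and 11 were called. Membership by pig symbols too changed nothing, and without the 3 DMRs shared with other genes 68 and 10 were called.

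Replicate numbers are shared between the breeds. The correlation of residuals was 0.063, -0.012 and 0.061 for same-numbered libraries and -0.081 to 0.035 for the other combinations. All were small, so the numbers were not taken as pairs. The paper names a paired t-test in figure legends on promoter methylation and expression. The replicate block left 70 and 11 called, with a median of 1.62. A filter on the authors' FDR was not run, because that column is the study's own comparison.

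With equal library medians, 14 of the 51 named DMRs turned from LBF to RBF and 21 lost their call. Those that turned were introns of SLC10A7 (-0.28), SLC22A23 (-0.39 and -0.24), SLC24A4 (-0.46, -0.46 and -0.18), SLC25A25 (-0.52), SLC27A2 (-0.24), SLC44A1 (-0.42), SLC9A2 (-0.22) and SLC46A2 (-1.04, adjusted p = 0.023), and the promoters of SLC20A2 (-0.061), SLC22A10 (-0.054) and SLC30A10 (-0.56). Of these, only SLC46A2 then passed limma. High folds that rest on few reads in a breed, as in RBF at SLC6A7 and SLC22A15, are imprecise. The 11 DMRs lower in LBF were not all shallow there, with LBF means from 2.87 at SLC35F1 to 49.5 at SLC15A1. How precision follows depth was not tested.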
